A study of Mus musculus with 15 samples.

Results

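Antigen-binding memory B cells made by adoptive transfer were compared here with naive B cells that bind the same antigen. The comparison was the second of the study's microarray screens and used 8 of the series' 15 arrays, chosen by their labels: 4 naive arrays (A, B, C and D) and 4 memory arrays (EK, FG, HJ and I). The naive samples were splenic B cells of mice carrying the mVh186.2 heavy chain transgene and lacking the kappa J segments (Jk KO), sorted for binding the hapten NP and for lack of AA4.1, a surface marker of immature B cells that is encoded by Cd93. The memory samples were NP-binding B cells sorted from the spleens of AM14/Vk8R transgenic recipients that had been given splenocytes of mVh186.2 transgenic donors. Every sample in both groups was thus sorted for NP binding. The mVh186.2 transgene was carried by the naive mice and by the donors of the transferred splenocytes. Transfer, the host strain and, as far as the labels go, the kappa deletion differed along with memory status, so their parts cannot be told apart. The labels do not give ages, the kappa genotype of the donors, or whether the 2-letter memory samples were pools. The series text calls the replicates biological; the p-values measure the spread between these samples and no more.

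A naive B cell that meets antigen and receives T cell help can divide, enter a germinal center, switch its antibody class and leave either as an antibody-secreting plasma cell or as a memory B cell. Memory B cells are long-lived, mostly out of the cell cycle and quick to become plasma cells on a second encounter with antigen. Mouse memory B cells have been divided by surface molecules such as CD80, PD-L2 and CD73, and naive splenic B cells by position into follicular and marginal zone cells.

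Levels are given as log2(intensity + 1), so a difference of 1 is a 2-fold change on that scale. The screen's values have a median of 4.73, and the 14688 genes or unnamed probe sets tested had to exceed this on at least 4 of the 8 arrays. With limma and a Benjamini-Hochberg adjusted p under 0.05, 3899 of them (26.5%) differed: 1541 (10.5%) were higher and 2358 (16.1%) lower in memory cells. Changes of at least 2-fold numbered 353 higher (2.40%) and 457 lower (3.11%). The largest changes ran upward: among called genes, 110 rose and 79 fell by at least 2 on the log2 scale, and 35 rose and 9 fell by at least 3. The median change over all tested genes was -0.025, and the median SE of a change was 0.0921. For 2555 genes (17.4%) all 4 memory arrays lay below all 4 naive arrays. The counts and medians of each gene list below are to be read beside these shares and this median.

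**Figure D1:**
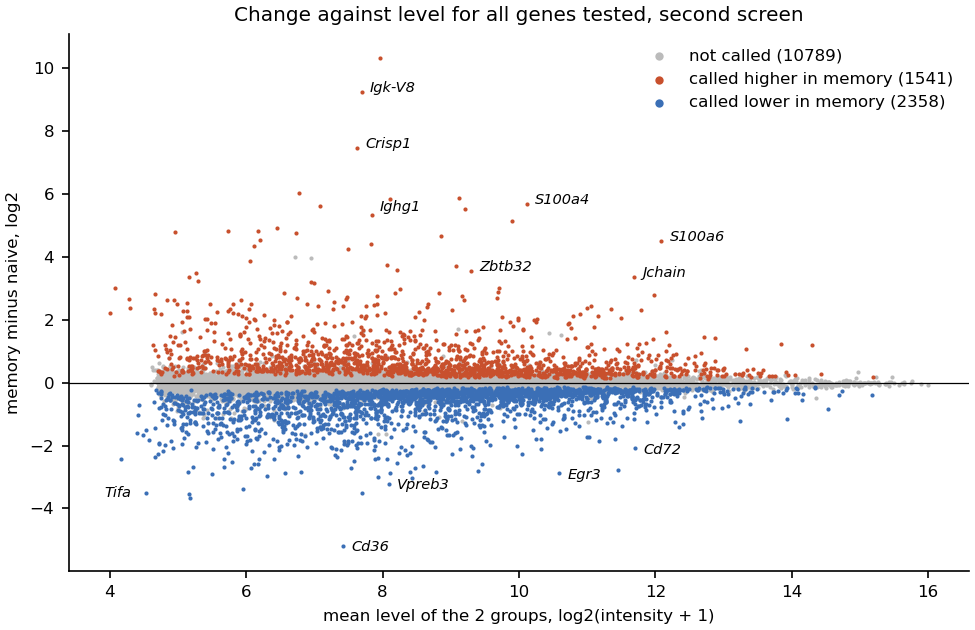
Change between memory and naive arrays (vertical axis, difference of mean log2(intensity + 1)) against the mean level of the 8 arrays (horizontal axis, log2(intensity + 1)) for the 14688 tested genes, with called genes coloured by direction. The points far above 0 reach higher than the points below it reach down: 35 genes rose and 9 fell by at least 3.

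Across the 8 arrays the median intensity ranged from 24.99 to 26.02. Pearson's r over all tested genes was 0.9893 to 0.9958 within groups and 0.9628 to 0.9713 between them. The first principal component, with 71.1% of the variance, separated the groups. None of the 8 B cell defining genes passed the test. Cd79a, Cd79b, Ms4a1, Ebf1 and Blk were bright in both groups, whereas the probe set of Pax5 was dimmer, at 5.26 to 5.40 on naive and 5.28 to 6.16 on memory arrays. Ms4a1 was at 15.10 to 15.25 on naive arrays and 15.16 to 15.42 on memory arrays. Naive B and naive D stood apart from naive A and C. Naive B had the highest mean of the cell cycle list (9.04, beside 7.88, 8.02 and 8.39 on naive A, C and D) and of the germinal center list (10.56, beside 9.59 to 9.70), and naive D the highest mean of the myeloid list (8.86, beside 7.16 to 7.78). With naive B and D both left out, a choice made after the data were seen, 3238 genes were called, 1155 higher and 2083 lower.

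Markers of other cells were measured beside the B cells. T cell genes fell in 7 of 13 cases and rose in 1 (median change -0.93), and all 5 measured NK cell genes fell (median -1.52). With naive A and C alone 4 T cell genes fell. These shares depend on the filter, since Nkg7 of the NK list and Cd28 of the T cell list exceeded it on naive arrays alone. With no filter 6 of 11 NK genes fell (median -0.68), and 5 of 16 T cell genes fell and 1 rose (median -0.71). Lck, a T cell kinase, was at 8.64, 9.15, 8.70 and 9.12 on naive A, B, C and D and at 6.84, 7.25, 6.97 and 6.49 on memory EK, FG, HJ and I. Gzma, which encodes granzyme A of cytotoxic cells, lay at 8.46 to 9.21 on naive arrays and at 5.11 to 6.88 on memory arrays. The summed intensity of the NK list was 1040 to 1672 on naive and 345 to 498 on memory arrays. For T cells the sum ran the other way, 4262 to 5150 against 6428 to 7261, through Cd2, an adhesion receptor that B cells also carry, which rose by 1.25. Of the 13 myeloid genes 1 rose and 1 fell, and without naive D 6 rose and 1 fell. Dendritic cell genes fell in 4 of 7 cases, led by Cd83 and Irf8, both of which B cells express. Of 6 erythroid genes 1 fell (Car2, with a change of -2.24), of 3 platelet genes none passed, and of the 2 measured genes of the stromal list, Pecam1 did not pass and Cr2, which B cells also carry, fell by 0.54. In bulk samples such as these, fewer cells of a type and less RNA per cell cannot be told apart.

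**Figure D2:**
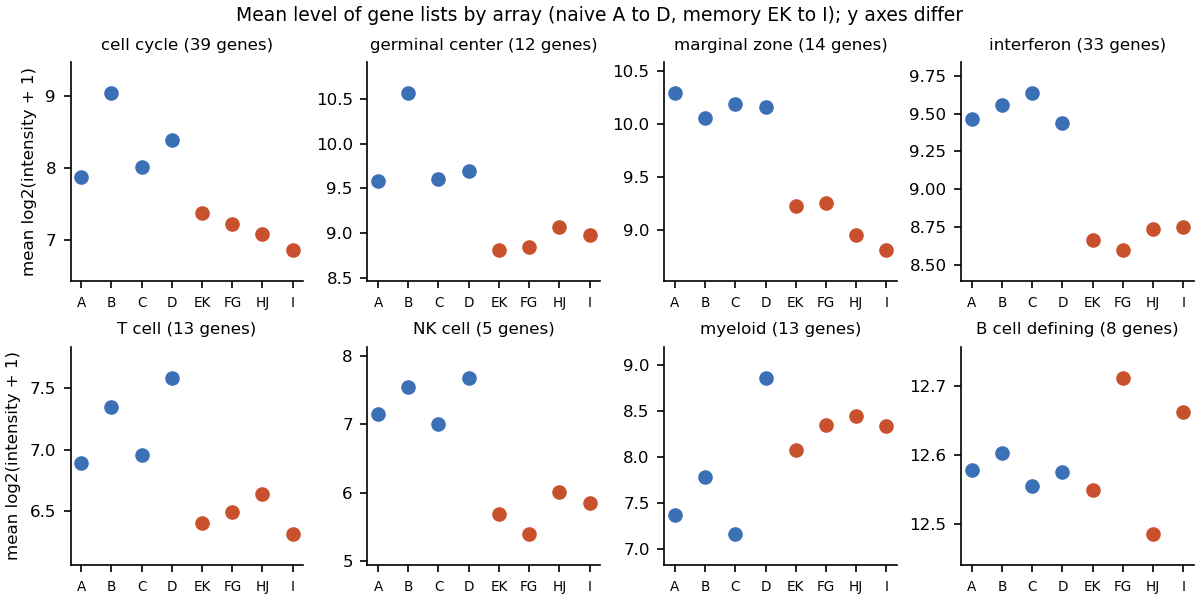
Mean level of the measured members of selected gene lists on each array (vertical axis, log2(intensity + 1)), with naive A, B, C and D and memory EK, FG, HJ and I as points and vertical axes that differ between panels. Naive B is the highest array for the cell cycle and germinal center lists, naive D for the myeloid list, and the 4 memory arrays lie below the 4 naive arrays for the interferon and NK lists.

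The largest rise of any gene outside the antibody genes was that of Crisp1, a cysteine-rich secretory protein known from the epididymis. Its level was 4.02, 3.61, 3.85 and 4.14 on naive A, B, C and D and 11.57, 11.37, 11.25 and 11.23 on memory EK, FG, HJ and I, a rise of 7.45 (SE 0.13, adjusted p = 5.25e-09). Levels under 4.73, as the naive levels of Crisp1, are in the dim range of these arrays, where the size of a change is less exact. Crisp1 thus passed the filter only through the memory arrays. Hepacam2, an immunoglobulin-like adhesion protein, went from 4.62 to 5.99 on naive arrays to 10.87 to 11.29 on memory arrays (rise 5.85, SE 0.29). S100a4, a calcium-binding protein of motile cells, stood at 7.42, 7.23, 6.99 and 7.46 on the naive arrays and at 13.09, 12.89, 12.89 and 12.92 on the memory arrays (rise 5.67, SE 0.10, adjusted p = 6.28e-09). Prkar2b, a regulatory subunit of protein kinase A, was at 7.87, 7.22, 7.00 and 7.22 against 12.64, 12.37, 12.28 and 12.60 (rise 5.15, SE 0.18, adjusted p = 3.48e-07). In all 4 genes the groups lay far apart beside the spread within them. A large change without overlap of arrays was the condition for naming them, so this separation is no further evidence.

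The other genes of the 15 largest rises spanned 3.86 to 6.02. They included the tubulin polymerization-promoting proteins Tppp3 (6.02) and Tppp (5.62), the beta tubulin Tubb6 (4.76), the LIM-domain protein Pdlim1 (4.66) and Lmna, the nuclear lamin A/C gene (4.41). Tppp3 was lower on memory HJ, at 8.86, than on the other memory arrays, at 10.05 to 10.12. Osbpl3, an oxysterol-binding protein, rose by 4.91 with the largest error among them (SE 0.51), since naive B read 5.80 and the other naive arrays 3.11 to 3.58. Lifr, the receptor of leukemia inhibitory factor, rose by 4.52, S100a6 by 4.50 and the transcription factor Rfx2 by 3.86. Lifr varied among the memory arrays, with 9.0, 8.68, 8.37 and 7.80 on EK, FG, HJ and I.

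The largest fall was that of Cd36, a scavenger receptor that marks marginal zone B cells in the mouse spleen. It was at 10.16, 9.61, 10.07 and 10.28 on naive A, B, C and D and at 5.22, 5.03, 4.91 and 4.13 on memory EK, FG, HJ and I, a fall of 5.21 on the log2 scale (SE 0.24, adjusted p = 1.11e-06). Dusp4, a MAP kinase phosphatase, fell by 3.66, the LIM-domain gene Csrp2 by 3.53 and Tifa, an adaptor of NF-kB signaling, by 3.49. Cd93 fell by 3.39 and Vpreb3, a pre-B cell receptor protein, by 3.23. The other genes of the 15 largest falls spanned changes of -3.50 to -2.85 and included Il12a, the interleukin-12 alpha chain (-3.01), the immediate early genes Nr4a1 (-2.88) and Egr3 (-2.86), Rgs10 (-2.85) and the interferon-stimulated gene Ifi44 (-3.04). By the smallest adjusted p, Selenop, a selenium carrier protein (fall of 2.65, SE 0.074), and Ly6a, the Sca-1 antigen (fall of 2.77, SE 0.092), stood beside these, and Gucd1 rose by 1.69 with an SE of 0.056.

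**Figure D3:**
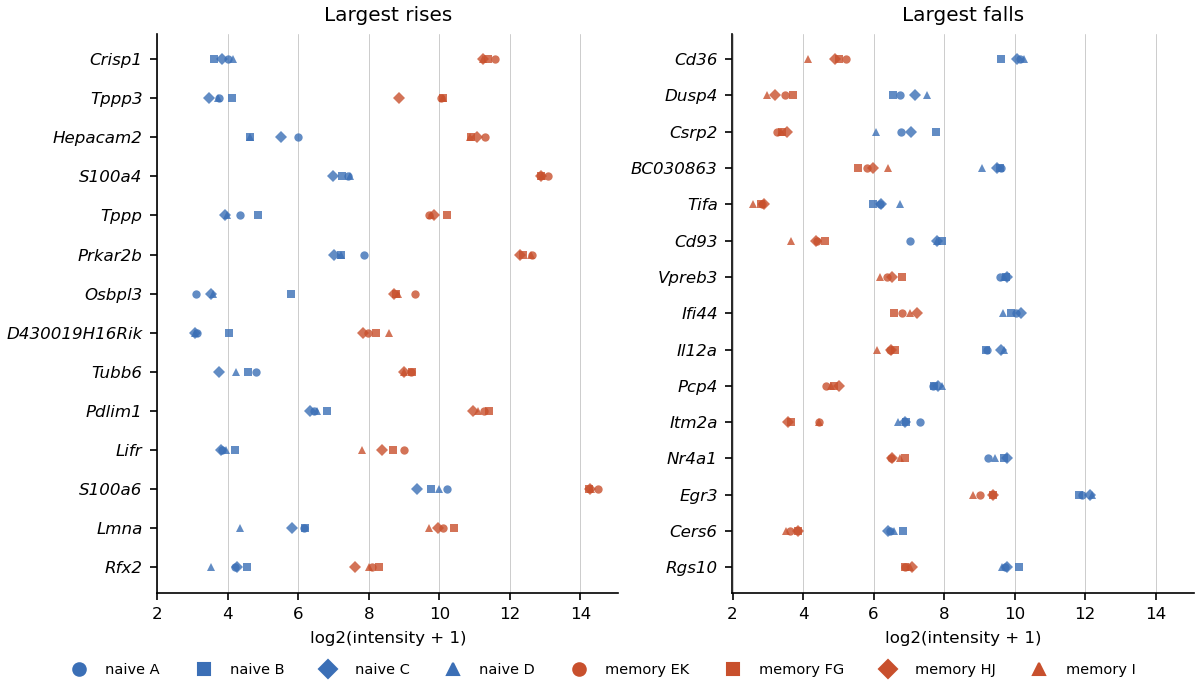
Levels on each of the 8 arrays (horizontal axis, log2(intensity + 1)) of the genes with the largest rises and falls outside the antibody genes, naive and memory arrays in separate colours. Crisp1 goes from about 3.61 to 4.14 on naive arrays to 11.23 to 11.57 on memory arrays, and Cd36 from 9.61 to 10.28 down to 4.13 to 5.22.

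Antibody genes split into chains that differed and chains that did not. Probe sets annotated to Igk-V8, a kappa variable gene family, went from dim to bright in 3 of 4 measured cases, and the fourth rose by 0.55. Those 3 passed the filter only through the memory arrays, and the family's other probe sets were too dim to pass. The share of 3 in 4 thus depends on the filter. The tested Igk-V8 probe set, the highest in mean, read 3.16, 3.08, 3.47 and 2.58 on naive A, B, C and D and 11.86, 12.54, 12.50 and 12.37 on memory EK, FG, HJ and I (rise 9.25, SE 0.21, adjusted p = 2.49e-08). The unnamed probe set 1452417_x_at rose further, by 10.31, from a mean of 2.81 to 13.12. The naive mice lacked the kappa J segments and the hosts' label names Vk8R, and the source of the kappa transcripts was not tested. Igk-V1, another kappa variable family, rose by 2.22 to a mean of 5.11 with its only measured probe set. That probe set, too, passed the filter only through the memory arrays. In the first screen Igk-V8 differed by 0.06 (adjusted p = 0.928), read by that screen's own brightest kept probe set, which may be another.

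The constant region of IgG1 rose with the kappa chains. Ighg1 was at 4.29, 6.10, 5.22 and 5.11 on naive A, B, C and D and at 10.87, 10.31, 10.68 and 10.16 on memory EK, FG, HJ and I (rise 5.32, SE 0.34, adjusted p = 7.4e-06), and all 5 of its measured probe sets rose, by 2.35 to 5.32. Naive B was the highest naive array for this Ighg1 probe set, but not for the other 4. It was also the highest for Jchain, which joins antibody multimers and read 9.29, 11.45, 9.29 and 10.02 on the naive arrays and 13.33, 13.38, 13.31 and 13.48 on the memory arrays (rise 3.36, SE 0.42). Igh-1, another heavy chain gene in the array's annotation, rose by 1.93 with one probe set, and its other measured probe set did not pass (0.45, adjusted p = 0.343). Of 4 measured probe sets of the heavy chain variable family Igh-VJ558, 2 rose, by 3.04 and 2.66, and 2 did not pass (0.23 and 0.0026). Ighm, the IgM heavy chain, was bright in both groups and did not pass the test (14.42 to 14.58 against 14.26 to 14.61; change -0.05, SE 0.08, adjusted p = 0.695). The lambda variable gene Iglv1 did not pass either (15.38 to 15.47 against 15.36 to 15.51; change 0.03, SE 0.05). Ighm and Iglv1 were picked for mention after their values were seen. Probe sets of antibody genes can bind transcripts of related segments, so a value may sum over several of them.

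**Figure D4:**
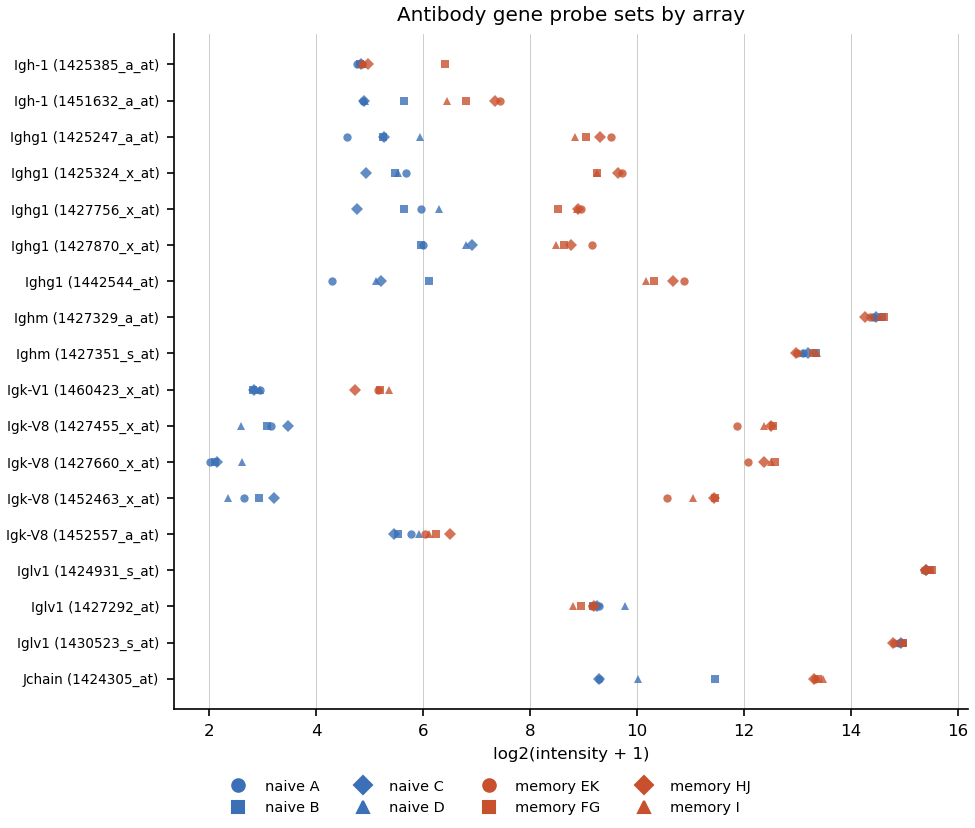
Levels of antibody probe sets on the 8 arrays (log2(intensity + 1)), naive and memory arrays in separate colours. Measured Ighg1 probe sets and 3 of the 4 measured Igk-V8 probe sets are far apart between the groups. Those of Ighm and Iglv1 lie together, most of them near the top of the scale.

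Surface molecules by which memory B cells are subdivided rose in 5 of 9 cases, among them Ighg1, given above, and fell in 2 (median change 0.86). Pdcd1lg2, which encodes PD-L2, was at 5.39, 5.14, 5.45 and 5.62 on naive A, B, C and D and at 8.60, 8.70, 8.60 and 8.40 on memory EK, FG, HJ and I (rise 3.18, SE 0.12, adjusted p = 4.58e-07). Cd80, the costimulatory ligand B7-1, rose by 2.49 (SE 0.21), the adhesion receptor Cd44 by 0.86 (SE 0.10) and Nt5e, which encodes the ectonucleotidase CD73, by 1.2, although naive B (8.07; other naive arrays 6.48 to 6.49) overlapped the memory arrays (7.88 to 8.44). The related costimulatory ligand Cd86 did not pass (change 0.04). Cd38 fell by 0.28, and Cd27, a marker of human memory B cells, fell by 1.12. The call of Cd27 ended with naive A and C alone as controls (adjusted p = 0.053), and that of Cd38 too (adjusted p = 0.077). Among antigen presentation genes 6 of 25 rose and 7 fell (median -0.07); 4 fell without memory EK, and 3 with naive A and C alone. Cd274, which encodes PD-L1, rose by 1.15 (SE 0.07) and lay at 10.40 to 10.43 on all 4 memory arrays against 9.05 to 9.39 on naive arrays. Lgmn, a lysosomal endopeptidase, fell by 1.72, the ICOS ligand gene Icosl by 0.86, and H2-Ob, a subunit of the class II antagonist H2-O, by 0.33, whereas H2-Ab1, H2-Aa, H2-K1 and B2m changed by -0.15 to 0.00 and did not pass.

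Genes of resting follicular B cells fell in 7 of 12 cases and rose in 2 (median -0.45). Fcer2a, the low-affinity IgE receptor CD23, fell by 1.40, the transcription factor Bach2 by 1.60, the chromatin organizer Satb1 by 1.13 and the forkhead factor Foxo1 by 1.26 (SE 0.06). Gpr183, the oxysterol receptor that guides B cells to the outer follicle, rose by 1.39 (9.82 to 10.16 against 11.25 to 11.64), and Klf2, a factor of lymphocyte trafficking, rose by 1.00. Genes of transitional and immature B cells fell in 5 of 7 measured cases and rose in none (median -1.43). Cd93, the AA4.1 antigen itself, was at 7.03, 7.95, 7.79 and 7.80 on naive A, B, C and D and at 4.38, 4.62, 4.36 and 3.67 on memory EK, FG, HJ and I (adjusted p = 1.82e-05), although the naive sort excluded AA4.1-positive cells. Vpreb3 was at 9.58, 9.77, 9.79 and 9.70 against 6.38, 6.82, 6.52 and 6.19 (fall of 3.23, SE 0.13, adjusted p = 5.15e-07). Tmem108 fell by 1.57 and Ms4a4c by 1.43, and for each of these 4 genes every memory array lay below every naive array. A further 5 genes of that list were on the array but too dim to pass the filter, and with no filter 4 of 12 fell (median -0.03).

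Marginal zone B cell genes fell in 9 of 14 cases and rose in 1 (median -0.82). After Cd36, the largest falls were those of the tetraspanin Cd9, from 8.44 to 8.68 down to 5.85 to 6.41 (change -2.36, SE 0.13), and of the semaphorin receptor Plxnd1 (-1.71). S1pr3, a sphingosine-1-phosphate receptor, fell by 1.02 and Dtx1, a Notch target, by 0.86. The mean of the list was 10.06 to 10.29 on naive and 8.82 to 9.26 on memory arrays, so that every memory array lay below every naive one. Notch2, the receptor that marginal zone B cells need, did not pass (change -0.07). The only member that rose, Hes1, did so by 0.40 with an adjusted p of 0.047 and lost its call under several settings.

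Germinal center genes fell in 6 of 12 cases and rose in none (median -0.89; without naive B 7 fell, median -0.41). Bcl6, the repressor that drives the germinal center state, was at 11.46, 12.09, 11.86 and 12.05 on naive A, B, C and D and at 9.75, 10.04, 10.53 and 10.21 on memory EK, FG, HJ and I (fall of 1.73, SE 0.18, adjusted p = 0.000147). Rgs13, a regulator of G protein signaling of germinal center cells, fell by 1.21, the cytokine subunit Ebi3 by 1.08, the chemokine receptor Cxcr4 by 2.28 and the class I myosin Myo1e by 0.47. S1pr2, which keeps cells in the follicle center, did not pass: it was at 9.49 on naive B, 6.01 to 6.93 on the other naive arrays and 5.84 to 6.28 on memory arrays. Its level on naive B moved with that array's cell cycle genes, and the part of either in the list's result was not tested.

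Genes of antibody-secreting cells split, with 2 of 15 higher, 5 lower and a median of -0.00. Beside Jchain, the protein disulfide isomerase Txndc5 rose by 1.31 (8.91 to 9.35 against 10.31 to 10.66). Derl3, a factor of endoplasmic reticulum degradation, fell by 2.02, Ly6c1 by 1.22 and the coactivator Pou2af1 by 0.34. Prdm1, which encodes the plasma cell factor Blimp-1, did not pass (5.80 to 6.44 against 6.03 to 6.47), nor did Sdc1, which encodes CD138 (5.76 to 5.91 against 5.88 to 6.0). With the mean of its probe sets Sdc1 was called lower (-0.36, adjusted p = 0.015). Prdm1 and Sdc1 were chosen for mention after their values were seen. B-1 cell genes rose in 6 of 10 cases and fell in 2 (median 0.52). Zbtb32, a repressor that restrains memory responses in the mouse, was at 7.74, 7.70, 7.21 and 7.50 on naive A, B, C and D and at 11.27, 10.99, 10.86 and 11.16 on memory EK, FG, HJ and I (rise 3.53, SE 0.13, adjusted p = 4.63e-07). The GTPase-activating protein Tbc1d9 rose by 2.61, the clock-related repressor Bhlhe41 by 2.10 and the scramblase Plscr1 by 1.99. Cd5, the defining surface antigen of B-1a cells, fell by 1.49, and Bhlhe40, the close relative of Bhlhe41, fell by 1.08. The T cell list fell on the same arrays (median change -0.93), and its part in the fall of Cd5 was not tested.

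Of 30 transcription factors of the B lineage, 6 rose, 10 fell and 14 did not pass (median -0.05). Beside Zbtb32 and Bhlhe41, the corepressor Ski rose by 1.52, Zeb2 by 1.34, Zbtb20, a factor of plasma cell survival, by 0.93, and Pou2f2 by 0.52. Beside Bcl6, Bach2 and Bhlhe40, the interferon regulatory factor Irf8 fell by 0.99 (12.27 to 12.77 against 11.28 to 11.68) and Mef2c by 0.57. Pax5, Ebf1, Spi1, Irf4 and Ikzf3 changed by 0.02 to 0.25 and did not pass. Calls of genes that restrain the cell cycle in resting cells were evenly divided: 5 of 20 quiescence factors rose and 5 fell (median -0.17). The changes ran from -1.26 to 1.36, and 7 of the 20 were above 0. Slfn1, a Schlafen gene of resting lymphocytes, rose by 1.36 and Klf3 by 0.75 (11.56 to 11.74 against 12.32 to 12.42).

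No B cell receptor signaling gene was called with a change of at least 2-fold. Of 26, 2 rose (7.7%), 7 fell (26.9%) and 17 did not pass (median -0.09), beside 10.5% higher and 16.1% lower over all tested genes. Without naive D or without memory HJ 4 rose. The adaptor Pik3ap1 (BCAP) fell most, by 0.98 (SE 0.08), the complement receptor Cr2 by 0.54 and the kinase Lyn by 0.28. In the same pathway the paracaspase Malt1 rose by 0.54. With the mean of its probe sets in place of the brightest, Malt1 lost its call (adjusted p = 0.075). Inhibitory receptors and phosphatases rose in 3 of 18 cases and fell in 5 (median -0.08), and 1 rose without naive A or without memory FG. Cd72, an inhibitory coreceptor, was at 12.67 to 12.85 on naive and 10.54 to 10.89 on memory arrays (fall of 2.07, SE 0.08, adjusted p = 5.15e-07). Fcrl1 fell by 0.98 and Btla by 0.92, whereas Ceacam1 rose by 0.69. Cd22 (change -0.18, adjusted p = 0.061) and the inhibitory Fc receptor Fcgr2b (0.14) did not pass. Of 18 Toll-like receptors and adaptors 6 fell and 2 rose: Tlr1 fell by 0.96 and the kinase Irak2 by 1.01, Irak3, a kinase-dead brake on the pathway, rose by 1.2 (7.88 to 8.18 against 9.18 to 9.34), and Irak4 rose by 0.26 (adjusted p = 0.038). Irak4 lost that call without any 1 array other than memory FG (adjusted p = 0.06 to 0.088) and changed by 0.029 with the mean of its probe sets. Myd88, Tlr7 and Tlr9 changed by -0.06, -0.10 and 0.15 and did not pass.

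Among cytokine and growth factor receptors 5 of 25 rose and 8 fell (median -0.13), and 3 rose without naive C. When probe sets of a gene were averaged, 7 rose and 4 fell. Lifr led the rises. Csf2rb, the common beta chain of the interleukin-3, interleukin-5 and GM-CSF receptors, rose by 1.43 (9.63 to 10.60 against 11.45 to 11.59), and the interleukin-6 receptor Il6ra by 1.19. Bmpr1a, a bone morphogenetic protein receptor, rose by 1.18, but naive B (8.06) overlapped the memory arrays (7.89 to 8.63), and the call ended without naive A, naive C or memory EK. Il21r, the receptor of a T cell cytokine that drives germinal center responses, fell by 1.92, from 8.25 to 9.11 down to 6.77 to 6.85. Il7r fell by 1.41 and Il2rb by 1.30, and the chemokine Ccl5 by 1.73. T and NK cells express those 3 genes as well as Cd27, and the T and NK lists fell on the same arrays (sums of the NK list 1040 to 1672 against 345 to 498); their part in the result was not tested. Both interferon alpha receptor chains, Ifnar1 (-0.56) and Ifnar2 (-0.69), fell, the former not with the mean of its probe sets (change -0.05, adjusted p = 0.82).

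Chemokine receptors and adhesion molecules rose in 7 of 27 cases and fell in 7 (median -0.08). The integrin chains Itgb1 and Itgb7 rose by 1.45 (SE 0.11) and 1.14 (SE 0.08). Ccr7, which guides lymphocytes to T cell zones, fell by 1.11, and the cannabinoid receptor Cnr2 fell by 1.19, while the follicle-homing receptor Cxcr5 changed by -0.10 and did not pass. In the TNF receptor family 2 of 12 rose and 4 fell. Tnfrsf13c, the BAFF receptor, fell by 0.90 (12.82 to 13.39 against 12.10 to 12.38), and Tnfrsf13b, the related receptor TACI, rose by 0.39 (SE 0.09). Tnfrsf1b rose by 0.66 and lymphotoxin alpha (Lta) fell by 0.86. Regulators of G protein signaling fell in 5 of 9 cases and rose in 2 (median -0.69); 1 rose without naive A, B or C or memory EK or HJ, and 3 without memory I. Rgs10 fell by 2.85 (9.65 to 10.12 against 6.88 to 7.10), Rgs2 by 1.73 and Rgs18 by 0.69, and Rgs14 rose by 0.45. Cytokine genes fell in 5 of 13 cases, led by Il12a (9.20 to 9.70 against 6.10 to 6.62), and Il18 alone rose, by 0.80.

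Immediate early genes, which are induced within minutes of receptor signals, went both ways, with 7 of 21 higher and 8 lower (median -0.24), and 4 higher with naive A and C alone. Egr3, a target of antigen receptor signals, was at 11.90, 11.82, 12.15 and 12.19 on naive A, B, C and D and at 9.02, 9.38, 9.39 and 8.82 on memory EK, FG, HJ and I (fall of 2.86, SE 0.14, adjusted p = 1.7e-06). Nr4a1, an orphan receptor that reports antigen receptor signaling in mouse B cells, fell by 2.88 (9.25 to 9.80 against 6.49 to 6.90). The phosphatases Dusp1 and Dusp2 fell by 2.15 and 1.15. Fosl2, a Fos-family factor, rose by 2.28, Klf4 by 1.01, Myc by 0.68 and Klf6 by 0.62. Stress and heat shock genes, which can rise during cell handling, rose in 1 of 12 cases and fell in 3 (median -0.20), with summed intensities of 46380 to 82060 on naive and 65440 to 78250 on memory arrays. Hspa1a varied most among them, at 9.17, 11.17, 9.56 and 5.98 on naive A, B, C and D and 7.68 to 9.66 on memory arrays, and did not pass.

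Enzymes and receptors of extracellular purines rose in 7 of 11 measured cases and fell in none (median 0.51). With naive A and C alone 2 fell. The other members of this list of 20 were on the array but too dim to pass the filter, and with no filter 4 of 20 rose and none fell (median 0.11). Adora2a, a receptor of adenosine, was at 5.48, 5.64, 5.85 and 5.63 on naive A, B, C and D and at 8.16, 8.16, 8.13 and 8.13 on memory EK, FG, HJ and I (rise 2.49, SE 0.09, adjusted p = 4.19e-07). Nt5e makes adenosine, and Entpd1 (CD39), which acts before it, rose by 0.65, Enpp1 by 0.69 and the ATP receptor P2rx4 by 0.51. The count of rises was 3 without naive A or naive C and 4 without memory EK or HJ. Entpd1 lost its call without naive C or memory EK, and Enpp1 without naive A. In the cyclic nucleotide pathway, 3 of 14 rose and 5 fell. Beside Prkar2b, Prkar2a rose by 0.76 and the cyclic AMP phosphodiesterase Pde8a by 1.5, whereas Pde2a fell by 0.76. Notch and Wnt genes were evenly split, 4 of 12 higher and 4 lower, with the corepressor Tle3 (0.88) and the Notch effector Rbpj (0.60) higher and the Notch target Hes5 lower (-1.14).

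S100 proteins and annexins, calcium-dependent binders of membranes and cytoskeleton, rose in 12 of 15 cases and fell in none (median 0.62). S100a6 was at 10.21, 9.77, 9.36 and 9.997 on naive A, B, C and D and at 14.49, 14.25, 14.28 and 14.31 on memory EK, FG, HJ and I (rise 4.50, SE 0.16, adjusted p = 4.19e-07). Anxa2 rose by 3.01, its partner S100a10 by 1.41 (SE 0.07) and Anxa6 by 1.23. The 3 that did not pass were Anxa4 (0.26) and the neutrophil genes S100a8 (1.52) and S100a9 (1.58), which were brightest among the naive arrays on naive D, as 12 of the 13 myeloid genes were. Cytoskeleton and LIM-domain genes rose in 17 of 28 cases and fell in 3 (median 0.94), and 6 fell without memory FG. Emp1, a tetraspan membrane protein, was at 2.48 to 2.68 on naive and 5.41 to 6.0 on memory arrays (rise 3.01, SE 0.13). It passed the filter only through the memory arrays, and its naive levels were dim, so the size of its rise is less exact. The galectins Lgals1 and Lgals3 rose by 2.17 and 1.32, Emp3 by 2.09, Tagln2 by 1.88 and Vim (vimentin) by 1.21. The abundant tubulins Tubb5 and Tuba1b changed by 0.05 and 0.12 and did not pass, and beside Csrp2 its relative Csrp1 fell by 0.54.

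**Figure D5:**
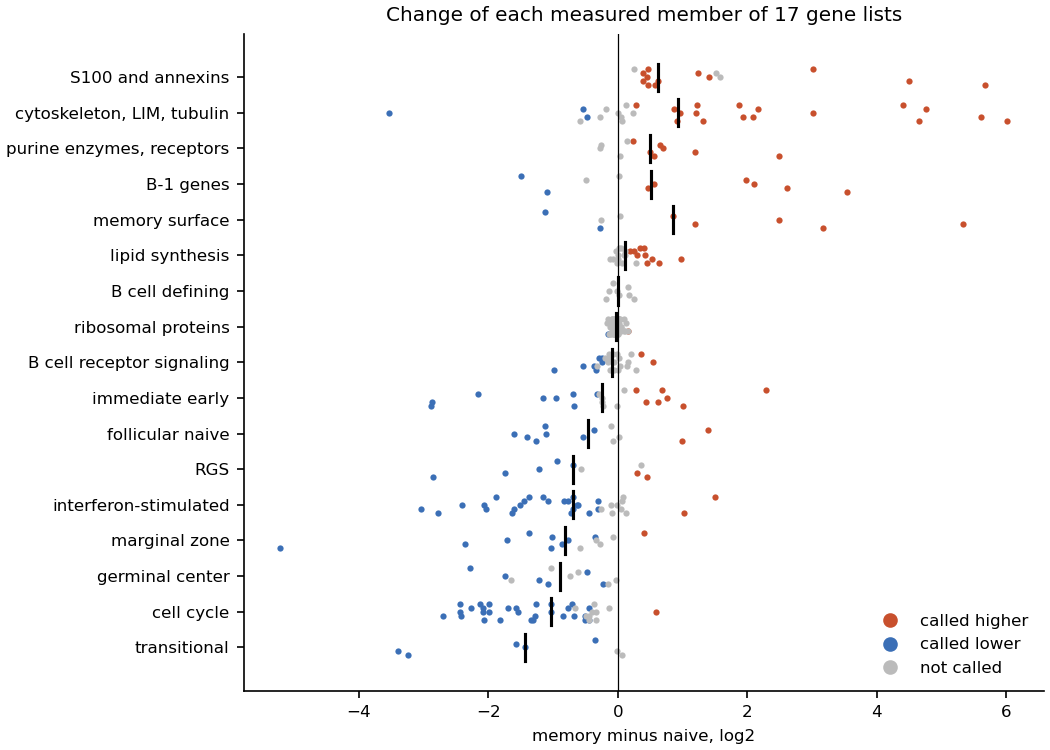
Change between memory and naive arrays (difference of mean log2(intensity + 1)) of each measured member of selected gene lists, 1 point a gene, coloured by call, with a bar at each list's median. The S100 and annexin list has 12 of 15 members called higher, the cell cycle list 29 of 39 and the interferon list 23 of 33 members called lower.

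Of 12 anti-apoptotic factors 1 rose and 5 fell (median -0.11). Bcl2 was at 12.16 to 12.38 on naive and 11.25 to 11.53 on memory arrays (fall of 0.87, SE 0.08, adjusted p = 4.89e-05), the kinase Pim2 fell by 0.73 and Birc5, which also acts in mitosis, by 2.12, while Pim1, a relative of Pim2, rose by 1.54 (8.20 to 8.43 against 9.54 to 10.08). Of 13 pro-apoptotic factors 2 rose and 3 fell (median -0.05). Bcl2l11, which encodes Bim, fell by 1.82 (9.06 to 9.89 against 7.51 to 7.94) and Bid by 0.78. Pmaip1 (Noxa) rose by 0.79. Mcl1, Bax and Bak1 changed by 0.09, 0.14 and 0.15 and did not pass.

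Cell cycle and mitosis genes were lower in memory cells in 29 of 39 cases, 21 of them by at least 2-fold, and 1 was higher (median -1.03). Bub1, a kinase of the spindle checkpoint, was at 6.69, 8.42, 7.08 and 7.51 on naive A, B, C and D and at 5.40, 4.66, 4.91 and 3.94 on memory EK, FG, HJ and I (fall of 2.70, SE 0.40, adjusted p = 0.00109). Cyclin B2 (Ccnb2) was at 6.78, 8.67, 7.15 and 7.91 against 5.42, 5.37, 5.25 and 4.72 (fall of 2.44, SE 0.37), Rrm2, a subunit of ribonucleotide reductase, fell by 2.27 and the centromeric histone Cenpa by 1.32. The groups did not overlap for these 4 genes, but naive B was the highest naive array for 36 of the 39. Without naive B 28 genes of the list fell and 1 rose (median -0.88), and without memory I 22 fell. With naive A and C alone 21 fell (median -0.70), and with no filter 22 fell. With a stricter filter on dim probe sets 14 members were left, of which 11 fell (median -0.59). Ccne1, the only member that rose (0.59), lost its call without naive A, naive C or memory EK.

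Ccnd2, which encodes cyclin D2, was at 11.46, 11.41, 11.32 and 11.26 on naive A, B, C and D and at 13.02, 13.09, 12.80 and 12.94 on memory EK, FG, HJ and I (rise 1.60, SE 0.07, adjusted p = 9.94e-07). Ccnd1 fell by 0.82 and Ccnd3 did not pass (change -0.01), nor did the kinase inhibitors Cdkn1a (0.03) and Cdkn1b (0.02). Of the 12 measured D cyclins, their kinases and inhibitors 1 rose and 3 fell, and 3 rose without naive D. DNA repair and damage response genes fell in 11 of 25 cases and rose in 2 (median -0.18). Brca2, a factor of homologous recombination, fell by 1.24 (6.84 to 7.20 against 5.76 to 5.90). Gadd45a fell by 1.35, Gadd45b by 1.01 and Trp53inp1 by 0.62. Both rises were lost without naive B, naive C, memory EK or memory FG. Among DNA methylation, Polycomb and histone deacetylase genes 12 of 26 fell and 2 rose (median -0.21), and 7 fell without memory EK. Ezh2, the Polycomb methyltransferase, which is high in dividing B cells, fell by 1.76 (9.76 to 10.62 against 7.81 to 8.47), with naive B the highest, and Hdac1 fell by 0.45. Of 13 histone genes 4 fell and 2 rose.

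Many cell cycle genes carry in their promoter the letters TTTGAA, the cell cycle homology region (CHR). In RefSeq promoters of mouse build GRCm38.p6, from 250 bases before to 50 after the start, TTTGAA on either strand was in 13 of the 31 list members with a promoter (41.9%), in 10 of the 24 that fell (41.7%), and in 3 of the other 7 (42.9%). The share over all promoters was 18.1% and that over tested genes 12%. The promoters of Ccnb2, with 2 matches, and Cenpa, with 1, are shown because both genes fell and no array of one group overlapped the other; capitals mark the matches, which are descriptions of the letters and not of binding.
Ccnb2, chr9:70421505-70421804, minus strand: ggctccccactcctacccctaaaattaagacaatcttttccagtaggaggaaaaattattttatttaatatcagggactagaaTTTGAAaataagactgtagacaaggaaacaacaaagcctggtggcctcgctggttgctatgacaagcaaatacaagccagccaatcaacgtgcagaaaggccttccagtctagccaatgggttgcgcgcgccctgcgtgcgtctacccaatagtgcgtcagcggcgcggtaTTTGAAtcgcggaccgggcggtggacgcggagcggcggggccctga
Cenpa, chr5:30666636-30666935, plus strand: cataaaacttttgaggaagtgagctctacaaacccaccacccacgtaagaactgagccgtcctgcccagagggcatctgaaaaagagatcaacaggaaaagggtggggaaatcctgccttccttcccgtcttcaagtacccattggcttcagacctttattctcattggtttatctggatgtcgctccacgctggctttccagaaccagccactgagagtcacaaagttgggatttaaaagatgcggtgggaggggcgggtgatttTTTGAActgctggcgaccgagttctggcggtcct

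Interferon-stimulated genes were lower in memory cells in 23 of 33 measured cases, 13 of them by at least 2-fold, and higher in 2 (median -0.70). These genes encode antiviral proteins that are induced through STAT and IRF factors. Usp18, a protease that removes ISG15 from proteins, was at 8.98, 9.22, 9.44 and 8.90 on naive A, B, C and D and at 6.68, 6.55, 6.94 and 6.77 on memory EK, FG, HJ and I (fall of 2.40, SE 0.13, adjusted p = 3.22e-06). Ifi44 fell by 3.04, Irf7, the factor that amplifies the response, by 2.07, and the exonuclease Isg20 by 1.07. Isg15, the ubiquitin-like modifier itself, fell by 1.37 (8.42 to 9.09 against 7.11 to 7.50) and Ifit3 by 1.88 (9.49 to 9.86 against 7.56 to 8.08); these 2 were chosen for mention after their values were seen, for their promoters. The mean of the list was 9.44 to 9.63 on naive and 8.60 to 8.75 on memory arrays, and naive B and D did not stand apart from naive A and C.

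Gbp3, a guanylate-binding protein, went the other way and rose by 1.02 (10.87 to 11.04 against 11.80 to 12.25). Oasl2 also rose (1.5, adjusted p = 0.049), but naive C, at 7.18, lay above all memory arrays and the call was lost under most settings. Stat2, Bst2 and the immunoproteasome genes Psmb8 and Psmb9 changed by -0.26 to 0.13 and did not pass. In the Ly6 family, which includes interferon-inducible surface proteins, 5 of 7 measured members fell and none rose (median -0.82). Ly6a was at 12.68 to 13.002 on naive and 9.83 to 10.17 on memory arrays, Ly6e fell by 0.82, Lynx1 by 1.21 and Ly6d by 0.56.

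The interferon-stimulated response element (ISRE) was searched in the same promoters, on either strand, as TTTC followed after any 2 bases by a repeat of TTTC. It was in 13 of the 24 members of the interferon list with a promoter (54.2%), against 3.49% of all promoters and 3.22% of those of tested genes. It was in 7 of the 14 members that fell (50%) and in 6 of the other 10 (60%). Isg15 and Ifit3, which fell, and Gbp3, which rose, are set side by side because all 3 hold the element, with capitals for the matches.
Isg15, chr4:156200769-156201068, minus strand: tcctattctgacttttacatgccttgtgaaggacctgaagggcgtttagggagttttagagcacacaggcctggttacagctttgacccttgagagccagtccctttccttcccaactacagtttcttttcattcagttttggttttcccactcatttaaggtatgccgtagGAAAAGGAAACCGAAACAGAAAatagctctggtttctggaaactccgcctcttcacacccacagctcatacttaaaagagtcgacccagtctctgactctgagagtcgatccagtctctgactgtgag
Ifit3, chr19:34583279-34583578, plus strand: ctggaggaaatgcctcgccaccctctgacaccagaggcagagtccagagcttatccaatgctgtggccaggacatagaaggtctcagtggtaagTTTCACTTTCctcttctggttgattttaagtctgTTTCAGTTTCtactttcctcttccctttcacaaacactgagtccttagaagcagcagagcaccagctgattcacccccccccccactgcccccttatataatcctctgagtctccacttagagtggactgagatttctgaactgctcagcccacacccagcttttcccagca
Gbp3, chr3:142559794-142560093, plus strand: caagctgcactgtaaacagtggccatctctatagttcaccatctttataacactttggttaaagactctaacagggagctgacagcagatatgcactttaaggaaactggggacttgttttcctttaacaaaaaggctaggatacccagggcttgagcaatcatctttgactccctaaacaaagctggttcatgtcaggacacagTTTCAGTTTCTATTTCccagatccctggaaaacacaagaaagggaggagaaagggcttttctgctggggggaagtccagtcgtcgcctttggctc

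Of 71 cytosolic ribosomal protein genes 1 rose and 1 fell (median -0.03), Rplp0 by 0.17 and Rpl27 by -0.14, and neither call held under all settings. Respiratory chain subunits fell in 6 of 50 cases and rose in 1 (median -0.09); without naive A, B or C 3, 2 and 2 fell. Among them Ndufa6 fell by 0.33. Of 35 proteasome subunits 1 rose (median 0.01). The Myc network and ribosome biogenesis genes rose in 6 of 21 cases and fell in 1 (median 0.15), with the nucleolar methyltransferase Fbl 0.37 higher.

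Glycolysis and pentose phosphate genes rose in 6 of 22 cases and fell in 1 (median 0.12). The glucose transporter Slc2a1 rose by 0.79 (11.33 to 11.59 against 12.24 to 12.37) and Eno1, which encodes enolase, by 0.53, while the transporter Slc2a3 fell by 0.51. Cholesterol and fatty acid synthesis genes rose in 10 of 23 cases and fell in none (median 0.11), among them fatty acid synthase (Fasn, 0.63). That count depended on single arrays, with 3 rises without naive C, memory EK or memory FG, 4 without naive A and 6 without memory I. Ass1, the argininosuccinate synthase that makes the precursor of arginine, was at 7.47, 7.22, 6.76 and 7.43 on naive A, B, C and D and at 11.08, 11.13, 10.62 and 10.91 on memory EK, FG, HJ and I (rise 3.72, SE 0.17, adjusted p = 1.19e-06). Asl, the next enzyme of the pathway, did not pass (change -0.19), and spermidine synthase (Srm) rose by 0.73. Lysosome and autophagy genes rose in 6 of 30 cases and fell in 6, with cathepsin L (Ctsl) 2.44 lower (6.82 to 7.99 against 4.83 to 5.09) and the acid lipase Lipa 0.71 higher. Endoplasmic reticulum genes rose in 3 of 35 cases and fell in 6 (median -0.02), with the isomerase Pdia4 0.65 lower, and 2 to 3 fell without naive A, naive B, naive C or memory EK.

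In the Fc and complement receptor list, 4 of 11 fell and 3 rose, and the rises came down to 1 without any of naive A, B or C or memory EK, FG or HJ. Fcmr, the Fc receptor of IgM, fell by 1.12, from 13.20 to 13.26 on naive arrays to 11.95 to 12.38 on memory arrays. Of genes studied in stem cell self-renewal 5 of 11 rose and 1 fell (median -0.01). Those that rose were Lifr, Bmpr1a, Ski, Bmi1 (0.34) and Lmo2 (0.32). The telomerase gene Tert changed by -0.02 and did not pass.

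The study's first screen also set memory against naive B cells, on 7 arrays whose labeling and processing software differed from those used here. Its sample titles name neither AA4.1 nor transfer. Sizes of change and counts of calls are therefore not directly comparable between the screens. The first screen's values are given beside those of the second, and the difference between the screens was not tested. It called 131 of 15856 genes (0.826%), 101 higher (0.637%) and 30 lower (0.189%). Genes were matched by name, and each screen used its own brightest kept probe set, so a gene's probe set may differ between screens. Of 13041 genes tested in both screens, 122 were called in both in the same direction (95 higher and 27 lower) and 0 in opposite directions. They were 95.3% of the calls of the first screen that the second also tested and 3.35% of the calls of the second that the first also tested. Tppp rose by 5.62 in the second screen and 4.50 in the first, S100a4 by 5.67 and 4.28, Ighg1 by 5.32 and 3.80, Pdlim1 by 4.66 and 3.56, and Hepacam2 by 5.85 and 3.35. Tifa changed by -3.49 and -3.86, Vpreb3 by -3.23 and -2.48, and Selenop by -2.65 and -1.51. Emp1 had the larger change in the first screen, 4.96 beside 3.01, and so did Bmpr1a (2.36 beside 1.18) and Pde2a (-2.06 beside -0.76). The 3.01 of Emp1 is less exact, since its naive levels in the second screen were dim. Some genes with a clear change in the second screen were not called in the first: Cd93 changed by -3.39 and 0.34 (adjusted p = 0.854 in the first), and Ccnd2 by 1.60 and -0.11 (adjusted p = 0.921). The 6 genes called in the first screen alone were Cdk14, Fkbp11, H1f2, Ptpn22, Slamf1 and Specc1, which were named after their values were seen.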

How the data were processed

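RNA of sorted cells was amplified, labelled with biotin and hybridised to mouse arrays with 45101 probe sets, of which 64 are controls, per the labels' protocols. The authors deposited a table of probe set intensity values on a linear scale, and GCRMA is named in the submitters' processing notes, with no version. That method corrects background and sets arrays to a common distribution, so differences in total RNA per cell are not kept, and it gives no detection calls. The columns that pool arrays equalled the means of their arrays and were not used. No 2 of the 8 arrays held identical values.

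Intensities had 1 added and were taken to log2 in this re-analysis; the deposited values carry no log2. Control probe sets were left out. Of each gene's probe sets above the filter, the brightest was kept. Symbols were updated through the RefSeq gene table of the mouse: 16764 probe sets kept a current symbol, 12185 were renamed by synonym and 1902 by accession, 1341 kept the file's symbol and 12845 had none. The 2 groups were compared with the R package limma (3.58.1, under R 4.3.3), whose eBayes step let the prior variance follow mean intensity, with no block, and p-values were adjusted by Benjamini-Hochberg over all tested genes. The procedure was tested on simulated data. The first screen was fitted the same way on its own, with the filter on at least 3 arrays. Where genes had several measured probe sets, these were called in opposite directions in 15 of 4644 cases.

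The arrays, gene lists and tests were chosen with earlier results of these data known. Genes named are drawn from the 15 largest rises and falls with no overlap of arrays, up to 4 called genes of smallest p per list and direction (up to 2 where none was called), the antibody probe sets of largest change and the 5 of smallest adjusted p; other members of the lists stand with their values as examples chosen after these were seen. Alternatives were other filters, scalings, pseudocounts, probe set rules, variance models and leaving out each array. The use of naive A and C alone was added after seeing the data. Values of some genes are not reported here.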

Additional observations from a re-analysis of the deposited data

Results flagged for a closer look

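Among 386 groups of 4 arrays (193 genes in 2 groups), 25 held an array that stood apart from the other 3 by Dixon's test at its 95% critical value; chance marks about 1 group in 20. The arrays concerned were naive B 6 times, memory HJ 5 times, memory EK 4 times, naive C and D 3 times each, naive A 2 times and memory FG and I 1 time each. All values are log2(intensity + 1), with the nearest other array of the group second.

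Naive B was highest for D430019H16Rik (4.03, nearest 3.13), Igh-1 (5.64, nearest 4.91), Bmpr1a (8.06, nearest 6.86) and Hdac1 (11.47, nearest 11.31), and lowest for Ebi3 (8.96, nearest 9.11) and Cnr2 (11.52, nearest 11.79). Of these, Bmpr1a is the one whose naive and memory arrays overlapped. Naive C was lowest for Cd80 (3.90, nearest 4.72) and Lgmn (10.50, nearest 10.67) and highest for Oasl2 (7.18, nearest 4.99). Naive D was lowest for Bhlhe40 (7.99, nearest 8.57), Irak2 (8.75, nearest 9.33) and Slc2a1 (11.33, nearest 11.54). Naive A was lowest for Brca2 (6.84, nearest 7.15) and Fcmr (13.20, nearest 13.25).

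Among memory arrays, HJ was lowest for Tppp3 (8.86, nearest 10.05) and highest for Foxo1 (10.02, nearest 9.82), Il7r (5.64, nearest 5.22), Hes5 (7.47, nearest 7.33) and Pmaip1 (10.64, nearest 10.41). EK was highest for S100a4 (13.09, nearest 12.92) and Osbpl3 (9.30, nearest 8.82) and lowest for Cd27 (3.83, nearest 4.42) and Cd2 (12.36, nearest 12.51). Memory FG was lowest for Gzma (5.11, nearest 6.61) and memory I for Ly6a (9.83, nearest 10.12).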

How the results depend on the processing

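The 193 genes checked were those named in the text, and 187 of them were called. Most were named for a call with a small p or a large change, so that share was largely set by the choice. Over all tested genes 26.5% were called. Most of the 193 kept their direction and side of the threshold under the 10 other settings and without any of the 8 arrays. Exceptions are named in this section or beside their lists. Icosl lost its call with naive A and C alone (adjusted p = 0.056). Leaving out 1 array gave 2989 to 4199 calls in all, 1201 to 1507 higher and 1752 to 2692 lower, with 759 to 831 of at least 2-fold (327 to 354 higher, 419 to 481 lower), and 119 to 122 genes called alike in both screens. A stricter filter, the 75th percentile of all values, left 8064 genes and 415 changes of at least 2-fold, 205 higher and 210 lower. The direction of 4 genes turned, none of them called with all arrays: Ighm without memory HJ (0.0098, with single arrays left out -0.11 to 0.0098), Prdm1 without naive C (-0.0043; range -0.0043 to 0.21), and, with the mean of their probe sets, Iglv1 (-0.12) and Sdc1 (-0.36, then called lower, adjusted p = 0.015). The medians of many lists near 0 also turned sign by small amounts. The larger turns were those of anti-apoptotic factors (0.013), self-renewal genes (0.32) and complement and Fc receptors (0.14) under the stricter filter, of pro-apoptotic (0.11), self-renewal (0.13) and erythroid genes (0.30) with naive A and C alone, of erythroid genes also with array weights (0.20), without naive D (0.15) and without memory HJ (0.19; range -0.21 to 0.19), of myeloid genes without naive C (-0.0069; range to 0.43) and of stress genes without naive B (0.065; range from -0.50). The cause was not tested. Beyond counts given with the lists, the stricter filter left 3 rises among immediate early genes, 1 fall among T cell and 2 among NK cell genes and 4 rises among myeloid genes, and array weights gave 6 myeloid rises and 11 respiratory chain and 7 ribosomal falls. With no filter 3 lipid synthesis and 0 DNA repair genes rose. Calls of Mzb1, Psmc5 and Ndufb10 were lost under some settings, and Cd22 and Ms4a1 gained one. Quantile normalization gave 1804 higher and 1980 lower. No paired analysis was possible because the groups share no replicate label. Dim levels limit the size of changes, since the table holds no detection calls.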

Other observations

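Probe sets that name no gene held some of the larger changes: 877 of the 3899 calls had no symbol. Beside 1452417_x_at, 1454984_at rose by 5.86, 1455056_at by 5.52, 1457270_at by 4.77 and 1436092_at by 4.35, and 1458432_at fell by 2.89, 1434572_at by 2.84 and 1435338_at by 2.72. They remain unnamed here.

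A difference of over 3 on the log2 scale among the arrays of 1 group was seen for 10 tested genes in the naive group and 2 in the memory group. Those 2 had the widest ranges. Mela, annotated as a melanoma antigen, read 5.03, 4.92, 5.01 and 4.93 on naive A, B, C and D and 5.30, 12.89, 12.37 and 5.17 on memory EK, FG, HJ and I. The unnamed probe set 1456182_x_at read 4.68 to 4.76 on naive arrays and 4.72, 12.98, 12.42 and 4.75 on the memory arrays. Both were thus high on memory FG and HJ alone among the 8 arrays. Neither passed the test (change 3.96, adjusted p = 0.131, and 4.01, adjusted p = 0.154). Among the naive arrays, Xlr3a read 3.18, 7.28, 3.33 and 3.27 on A, B, C and D and 5.78 to 5.94 on memory arrays, and Nrep 6.19, 9.55, 7.24 and 7.80, beside 5.54 to 6.43 on memory arrays. These genes were picked after their values were seen, and the source of the spread was not tested.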
